A study of Mus musculus with 4 samples.

Results

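The 10 genes described here make and load the peptides that MHC class I molecules display: Psmb8, Psmb9, Psmb10, Psme1, Psme2, Tap1, Tap2, Tapbp, Erap1 and Nlrc5. They were chosen by name, and all 10 were found among the 23337 gene names of each deposited table, each on a single row. The RNA-seq libraries, 2 from YFP+ and 2 from YFP- Kupffer cells (macrophages that live in the liver), came from Lyz2cre-RosaYFP reporter mice of both sexes, 6 to 8 weeks old. All 4 libraries come from the same reporter genotype, in which Cre made from the lysozyme gene Lyz2 turns on yellow fluorescent protein at the Rosa locus, so YFP marks cells that expressed Cre or descend from such cells, and YFP- cells carry the same alleles. Titles start with M for 1 library per group and with FM for the other, a difference the labels do not explain. The labels do not say whether the libraries came from separate or pooled animals, so the spread between them may be technical.

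Proteasomes cut cytosolic proteins into peptides. In immune cells and after interferon gamma, the catalytic subunits encoded by Psmb8, Psmb9 and Psmb10 take the places of the constitutive subunits encoded by Psmb5, Psmb6 and Psmb7 and shift the cuts toward peptides that class I molecules bind. Psme1 and Psme2 encode the alpha and beta subunits of PA28, a cap that opens the proteasome core. Tap1 and Tap2 form the pump that carries peptides into the endoplasmic reticulum, Tapbp (tapasin) bridges the pump to class I molecules and edits their peptides, and Erap1 trims peptides there. Nlrc5 is a transactivator of class I genes and of several genes of this pathway.

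Psmb9, Tap1, Psmb8 and Tap2 lie next to each other in the MHC on chromosome 17, from 34182099 to 34216321 in GRCm38, and Tapbp lies on the same chromosome from 33919478 to 33929290. Psmb9 and Tap1 point away from each other, and in RefSeq 225 bases separate their start sites. Outside the MHC, Psmb10 (105935728 to 105938392) and Nlrc5 (94472763 to 94527272) are on chromosome 8, Psme1 (55578494 to 55581527) and Psme2 (55587440 to 55591101) on chromosome 14, and Erap1 (74639872 to 74691875) on chromosome 13. In GENCODE M21 the Psmb9 model extends to 34187764, past the Tap1 start at 34187556, so that there these genes overlap on opposite strands. Antisense or other opposite-strand genes also overlap Psmb8, Psmb10, Psme1, Tap2 and Tapbp, and no source used here gives the strandedness, so reads of such neighbours cannot be told apart from theirs. Psme2 also has a copy, Psme2b, on chromosome 11, which has no row in the tables, so how its reads were assigned is uncertain.

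The sequences before the start sites are shown for the shared interval of Psmb9 and Tap1, which took different orders over the libraries although they share it, for Psmb8 as their neighbour, and for Psmb10, Psme1 and Psme2, which like Psmb9 were higher in both YFP+ libraries. They come from RefSeq in build GRCm38.p6, where 8 of the 10 genes had an entry (none for Tap2 and Nlrc5), and each is written 5′ to 3′ along its gene, except that the shared interval follows Tap1. Capitals mark matches, on either strand, to 3 motifs: the core of the interferon-stimulated response element (the letters GAAA, repeated on the same strand after any 2 bases), the GC box (GGGCGG) and the CCAAT box (CCAAT).
Psmb9 to Tap1 interval, chr17:34187331-34187555, plus strand: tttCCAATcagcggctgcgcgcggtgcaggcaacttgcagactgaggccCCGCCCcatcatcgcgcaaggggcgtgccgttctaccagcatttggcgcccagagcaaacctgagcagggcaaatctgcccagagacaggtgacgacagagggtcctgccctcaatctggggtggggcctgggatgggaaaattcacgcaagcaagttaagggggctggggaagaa
Psmb8, chr17:34197945-34198194, plus strand: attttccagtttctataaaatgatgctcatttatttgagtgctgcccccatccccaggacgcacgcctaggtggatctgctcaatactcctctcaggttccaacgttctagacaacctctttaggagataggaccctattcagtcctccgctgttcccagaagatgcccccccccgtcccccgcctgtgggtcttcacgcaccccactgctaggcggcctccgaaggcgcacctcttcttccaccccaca
Psmb10, chr8:105938393-105938642, minus strand: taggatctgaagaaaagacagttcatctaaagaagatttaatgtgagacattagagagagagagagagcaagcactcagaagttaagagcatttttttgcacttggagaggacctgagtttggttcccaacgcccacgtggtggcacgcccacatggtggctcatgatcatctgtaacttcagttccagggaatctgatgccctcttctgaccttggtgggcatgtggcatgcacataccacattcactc
Psme1, chr14:55578244-55578493, plus strand: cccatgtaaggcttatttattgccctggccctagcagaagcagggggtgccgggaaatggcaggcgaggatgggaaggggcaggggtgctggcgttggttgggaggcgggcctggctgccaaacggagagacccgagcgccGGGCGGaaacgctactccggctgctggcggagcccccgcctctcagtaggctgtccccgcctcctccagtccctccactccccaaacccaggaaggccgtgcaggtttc
Psme2, chr14:55591102-55591351, minus strand: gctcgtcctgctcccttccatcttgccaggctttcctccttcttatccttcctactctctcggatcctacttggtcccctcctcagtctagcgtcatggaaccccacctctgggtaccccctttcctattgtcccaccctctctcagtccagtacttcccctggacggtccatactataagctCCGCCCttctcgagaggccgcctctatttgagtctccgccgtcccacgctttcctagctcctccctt

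Over the 250 bases before the start, 0 of the 8 genes held the interferon-stimulated response element core, which 2.98% of 32851 mouse promoters of this length held. The printed Psmb8 window held none of the 3 motifs. A GC box stood before 5 of 8 (32.7% of all promoters) and a CCAAT box before 3 of 8 (33.8%). The Psmb9 to Tap1 interval held 1 GC box and 1 CCAAT box, so both genes count the same matches. A match is a description of letters, and a lack of one says only that these letters are not in this window.

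Several facts of the libraries bear on every value below. Values are TPM, transcripts per 1000000 scaled to gene length, so they compare genes within a library. TPM of one gene depends on what else a library holds, and without read counts the depth can be stated only through mean coverage per base, which at 1 FPKM ran from 2.59 to 9.19. The median difference of all 12251 tested genes, taken as log2(TPM + 1) of YFP+ minus that of YFP-, was -1.73, and -1.01 within the M and -2.48 within the FM libraries. Kupffer cell markers were present in all libraries, at a summed level of 33041 to 34035 TPM over 9 genes in YFP+ and 5874 to 11881 in YFP-. Markers of microglia, the resident macrophages of the brain, summed to 74.7 and 1006 TPM over 9 genes in YFP+ FM and YFP+ M, and to 16077 and 17388 in YFP-, with 0 of the 9 listed at 0 in any library. Endothelial markers summed to 66.6 and 139.9 TPM in YFP+ and 1090 and 1197 in YFP-, with 7 of 8 called lower (limma, adjusted p under 0.05). T and NK cell markers summed to 96.6 and 164 in YFP+ and 394 and 1187 in YFP-, with 4 of 7 called lower. These counts stand beside 39.5% of all tested genes called lower. Under quantile normalization 3 of the 8 endothelial and 0 of the 7 T and NK cell markers were called lower. Of the 9 microglia markers 9 were called lower on deposited TPM, with a median difference of -6.03. Under quantile normalization these 9 were still called lower, beside 1.67% of all tested genes. Of the 9 Kupffer cell markers 5 were called higher on deposited TPM, beside 0.522% of all tested genes, and 0 under quantile normalization. Of 7 conventional dendritic cell markers 6 were called lower, 0 under quantile normalization, with a median difference of -2.81 on deposited TPM. Their summed levels were nevertheless close, 131 and 162 TPM in YFP+ and 136 and 178 in YFP-, because Batf3, singled out after its values were seen, made up 119 and 159 TPM of the YFP+ sums and 54.3 TPM of each YFP- sum. In the order YFP+ M, YFP+ FM, YFP- M and YFP- FM, B cell markers summed to 513, 75.9, 589 and 571 TPM, hepatocyte markers to 293, 615, 1326 and 2025, and neutrophil markers to 1231, 6537, 1675 and 2844. The part of these cell mixtures in the differences below was not tested, and in bulk RNA fewer cells of a type and less RNA per cell cannot be told apart.

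The proteasome members and tapasin were among the abundant transcripts of every library, and Tap2, Erap1 and Nlrc5 were scarce. In every library Psmb8, Psmb9, Psmb10, Psme1, Psme2 and Tapbp each lay at or above 94.2% of gene names. In both YFP+ libraries and in YFP- M the highest was Psme1, and in YFP- FM it was Tapbp. Tap2, Erap1 and Nlrc5 filled the last 3 places in all 4 libraries, in changing order. Psmb8 stood above Psme2, Psmb10 and Psmb9 in all 4 libraries. The place of Tapbp relative to Psme1, Psmb8, Psme2, Psmb10 and Psmb9 changed between libraries, as did the order within the pairs Psme2 and Psmb10, and Psmb10 and Psmb9, so these neighbours cannot be ranked beyond their spread.

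**Figure D1:**
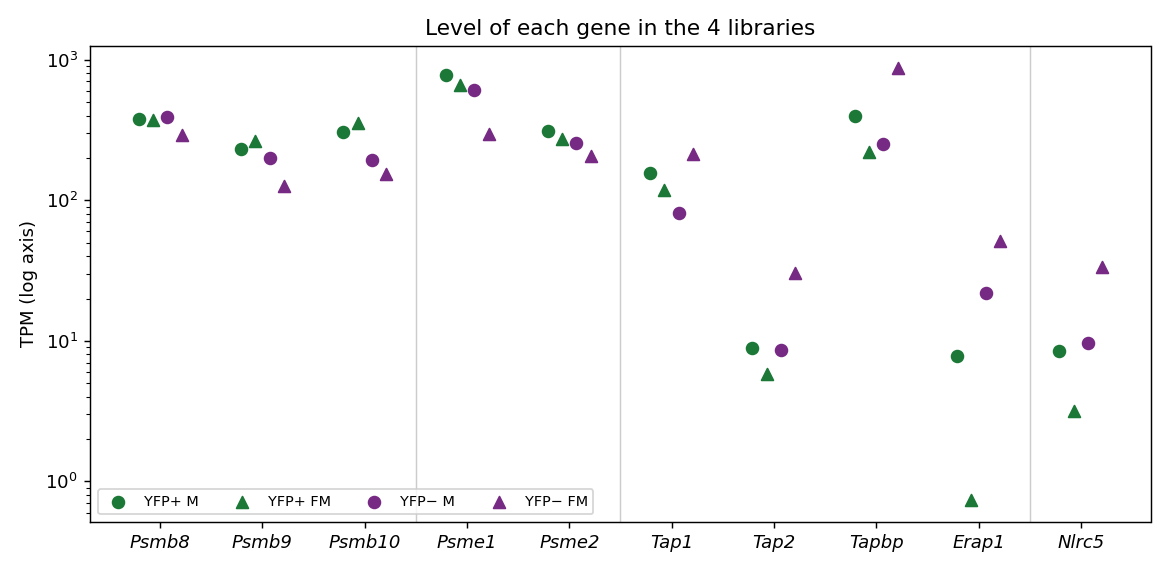
Level of the 10 genes in TPM (log axis) in each library; green points are YFP+, purple points YFP-, circles the M and triangles the FM libraries. Both green points lie above both purple points for Psmb9, Psmb10, Psme1 and Psme2 and below them for Erap1 and Nlrc5, and YFP- FM holds the highest Tap1, Tap2, Tapbp, Erap1 and Nlrc5.

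Across the 10 genes, 0 were called higher and 1 lower in YFP+ (limma with a mean trend, Benjamini-Hochberg over all tested genes, adjusted p under 0.05; at unadjusted p under 0.05 also 0 and 1). Of all tested genes 0.522% were called higher and 39.5% lower, and 6506 of 12251 had an unadjusted p under 0.05 in either direction. Both YFP+ libraries lay above both YFP- libraries for 4 of the 10, a pattern that 2.5% of all tested genes showed, and below them for 2 of the 10, which 79.7% showed. The median difference of the 10 genes was 0.10, beside -1.73 over all tested genes, and 9 of 10 lay above that overall median. Positive differences were found for 6 of the 10 and for 6.53% of all tested genes.

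None of the 3 catalytic subunits of the immunoproteasome passed the test, and both YFP+ libraries were higher for Psmb10 and Psmb9. Psmb10, which replaces the trypsin-like subunit, stood at 308 TPM in YFP+ M and 356 in YFP+ FM, against 195 in YFP- M and 154 in YFP- FM. Both YFP+ libraries were higher, with means of 332 ± 34.0 against 175 ± 28.5 TPM (SD, n = 2), but the difference of 0.93 (SE 0.87) did not pass limma's test (adjusted p = 0.354). Psmb9, which replaces the caspase-like subunit, was at 230 and 263 TPM in YFP+ M and FM and at 199.9 and 127 in YFP- M and FM. Its groups did not overlap either, and its difference of 0.62 (SE 0.88) did not pass (limma, adjusted p = 0.542). Psmb8, which replaces the chymotrypsin-like subunit, was the most abundant of the 3 in every library, at 380 and 375 TPM in YFP+ M and FM and 390 and 292 in YFP- M and FM. Its YFP- M value exceeded both YFP+ values, and the difference was 0.16 (SE 0.83, limma, adjusted p = 0.871).

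Set against their constitutive counterparts in the same library, the immune subunits had a larger share in both YFP+ libraries. Such a ratio does not move when a library is rescaled by a constant, apart from the effect of the 1 TPM added before taking logs. Psmb10 made up 77.3% and 92.3% of the Psmb10 and Psmb7 transcripts in YFP+ M and FM, and 46.3% and 57.2% in YFP- M and FM. The ratio also reflects Psmb7, which stood at 60.0 ± 43.1 TPM in YFP+ against 171 ± 78.3 in YFP-. The Psmb7 difference of -1.62 was like that of the typical gene, 0.11 above the median of all tested genes (-1.73). Under quantile normalization it was -0.34. The log2 ratio of Psmb10 over Psmb7 was 2.65 ± 1.27 in YFP+ and 0.10 ± 0.45 in YFP- (SD, n = 2), a difference of 2.55 or 5.85-fold. Psmb9 took 62.9% and 76.4% of the Psmb9 and Psmb6 transcripts in YFP+ M and FM, beside 49.7% and 52.1% in YFP- M and FM, a difference in log2 ratio of 1.17.

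For Psmb8 over Psmb5 the shares were 72.0% and 78.3% in YFP+ M and FM and 63.9% and 71.2% in YFP- M and FM. The groups came close, the lower YFP+ value next to the higher YFP- value, and the difference in log2 ratio was 0.54. Summed over the 3 pairs, the immune subunits were 71.1% and 82.2% of catalytic subunit TPM in YFP+ M and FM and 54.8% and 62.1% in YFP- M and FM. Each of these 3 ratios had an exact two-sided permutation p of 0.333 (adjusted p = 0.389 over 7 ratios), the smallest that 2 against 2 libraries allow. Under quantile normalization and cyclic loess, which also remove shifts that depend on a gene's level, both YFP+ ratios stayed above both YFP- ratios for Psmb10 over Psmb7 (difference 1.99 and 1.92) and Psmb9 over Psmb6 (0.92 and 0.87). Psmb8 over Psmb5 was -0.089 and -0.037 with overlapping groups, so its ratio depends on the scaling.

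**Figure D2:**
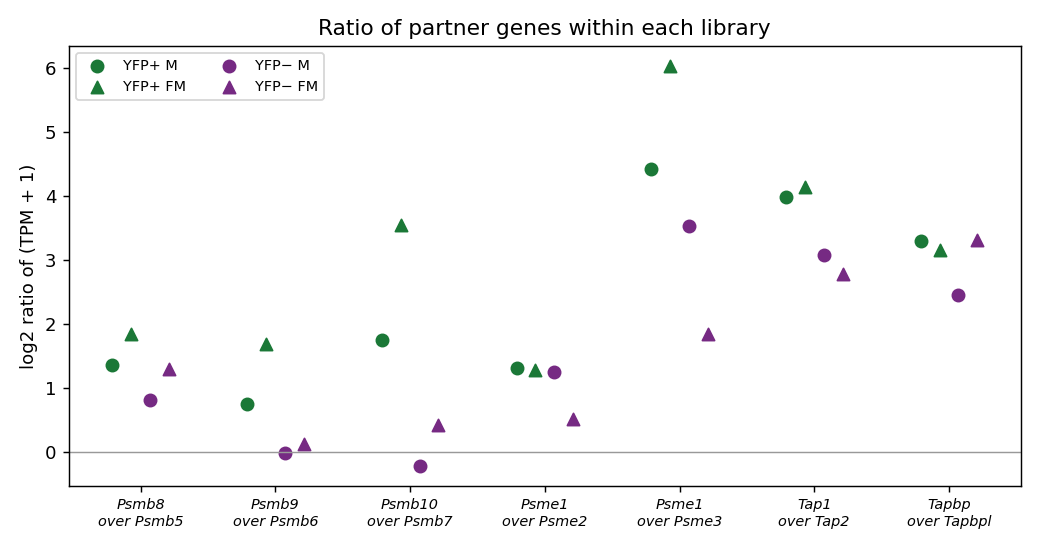
Log2 ratio of (TPM + 1) of 2 partner genes within each library, for 7 pairs; green points are YFP+, purple points YFP-, circles the M and triangles the FM libraries. Both green points lie above both purple points in 6 of 7 pairs of deposited values, and for Psmb10 over Psmb7 they stand at 1.76 and 3.55 against -0.21 and 0.42. Under quantile normalization this order held for 2 of the 7 pairs and under cyclic loess for 3. The share among other gene pairs was not computed.

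The PA28 genes were higher in both YFP+ libraries without passing the test. Psme1 was at 775 and 660 TPM in YFP+ M and FM and at 610 and 298 in YFP- M and FM. The lower YFP+ value lay close to the higher YFP- value, and the difference was 0.75 (SE 0.79, limma, adjusted p = 0.410). Psme2 was at 312 and 271 TPM in YFP+ M and FM and at 254 and 207 in YFP- M and FM, a difference of 0.34 (SE 0.86, limma, adjusted p = 0.736). The alpha subunit transcript exceeded the beta subunit transcript 2.48-fold and 2.43-fold in YFP+ M and FM, and 2.39-fold and 1.44-fold in YFP- M and FM. The ratio in YFP- FM stood apart from the other 3, which were nearly equal. Under quantile normalization and cyclic loess the difference of this log2 ratio, 0.41 on deposited values, was -0.16 and -0.039 with overlapping groups.

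Psme3, which encodes PA28 gamma, a nuclear relative outside the interferon response, was at 22.2 ± 18.5 TPM in YFP+ and 67.3 ± 21.9 in YFP- (-1.79, limma, adjusted p = 0.143). Psme1 exceeded it 21.4-fold and 65.4-fold in YFP+ M and FM and 11.6-fold and 3.57-fold in YFP- M and FM (exact two-sided permutation p = 0.333, adjusted p = 0.389). Under quantile normalization the groups of this ratio overlapped, with the log2 difference at 0.99 in place of 2.54. Under cyclic loess the difference was 0.82 and the groups stayed apart, though narrowly. There the log2 ratios were 4.06 and 4.62 in YFP+ M and FM and 4.02 and 3.02 in YFP- M and FM.

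For each of the transport and loading genes the values of the YFP groups overlapped. Tap1 was at 155 and 119 TPM in YFP+ M and FM and at 80.9 and 214 in YFP- M and FM. The YFP- libraries thus held both the lowest and the highest value, with a difference of 0.04 (SE 0.92, limma, adjusted p = 0.969). Its divergent neighbour Psmb9 had its lowest value, 127 TPM, in YFP- FM, the library where Tap1 was highest. Tap2 was at 8.85 and 5.77 TPM in YFP+ M and FM and at 8.67 and 30.3 in YFP- M and FM, so 3 libraries were close and YFP- FM stood above them (-1.09, SE 1.15, limma, adjusted p = 0.408).

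The transcripts of the 2 pump subunits were far from equal. Tap1 exceeded Tap2 15.9-fold and 17.7-fold in YFP+ M and FM and 8.47-fold and 6.87-fold in YFP- M and FM. The difference in log2 ratio of 1.13 (exact two-sided permutation p = 0.333, adjusted p = 0.389) was 0.16 under quantile normalization and -0.20 under cyclic loess, with overlapping groups in both. Tapbp was at 397 and 219 TPM in YFP+ M and FM and at 251 and 879 in YFP- M and FM. YFP- FM was again the highest and the groups overlapped (-0.67, SE 0.82, limma, adjusted p = 0.480). Tapbp exceeded Tapbpl, its relative that edits peptides outside the loading complex, 9.81-fold and 8.95-fold in YFP+ M and FM and 5.49-fold and 9.91-fold in YFP- M and FM, with overlapping groups (exact two-sided permutation p = 1).

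**Figure D3:**
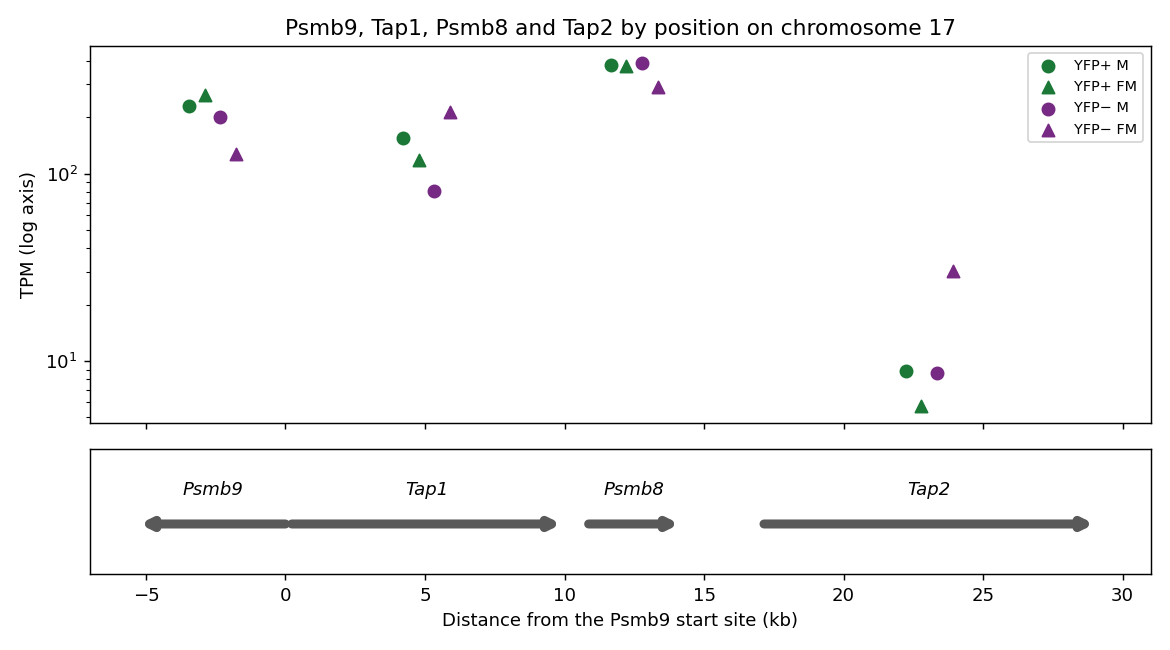
Level in TPM (log axis) of Psmb9, Tap1, Psmb8 and Tap2 above their positions, as distance in kb from the Psmb9 start site; arrows give the direction of transcription, green points are YFP+, purple points YFP-, circles M and triangles FM. YFP- FM is lowest for Psmb9 (127 TPM) and Psmb8 (292 TPM) and highest for Tap1 (214 TPM) and Tap2 (30.3 TPM).

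Erap1 was the 1 gene of the 10 that fell. It was at 7.79 and 0.737 TPM in YFP+ M and FM and at 21.7 and 51.6 in YFP- M and FM. Both YFP+ libraries lay below both YFP- libraries, with a difference of -3.15 (SE 1.15, limma, adjusted p = 0.0227), 1.41 below the median of all tested genes. In YFP+ FM its mean coverage was 1.55 reads per base, the thinnest of the 10 genes in any library. The call ended under quantile normalization (-1.23, adjusted p = 0.249), median-ratio scaling (-1.31, adjusted p = 0.138), cyclic loess (-0.99, adjusted p = 0.308) and the title start as a block (adjusted p = 0.158). It also ended without YFP- M (-3.75, adjusted p = 0.388), YFP+ FM (-1.98, adjusted p = 0.170) or YFP- FM (-2.54, adjusted p = 0.680), and held without YFP+ M (-4.32, adjusted p = 0.000563).

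Nlrc5 was scarce, at 8.51 and 3.17 TPM in YFP+ M and FM and at 9.67 and 33.4 in YFP- M and FM. The M libraries were nearly equal and the FM libraries lay far apart, and the difference of -1.61 (SE 1.15) did not pass (limma, adjusted p = 0.228). It was near the median of all tested genes, 0.12 above it. Without YFP+ M it was called lower (-2.20, adjusted p = 0.0431), while under quantile normalization, median-ratio scaling and cyclic loess its sign turned (0.43, 0.45 and 0.57). Direction for Nlrc5 thus rests on how the libraries are scaled.

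How libraries were scaled set the size of every difference. Quantile normalization, which gives all libraries one distribution, moved the median of all tested genes to -0.03 and that of the 10 genes to 0.90, with 0 of the 10 called in either direction (limma, lowest adjusted p = 0.180) beside 1.21% of all tested genes called higher and 1.67% lower. Cyclic loess gave a median of 0.71 for the 10 genes and again 0 calls (lowest adjusted p = 0.235), beside 0.531% called higher and 0.327% lower. Median-ratio scaling, which divides each library by 1 factor, gave a median of 2.39. It called 4 of the 10 higher and 0 lower, beside 5.62% and 5.91% of all tested genes: Psmb10 (3.22, limma, adjusted p = 0.0231), Psmb9 (2.91, adjusted p = 0.0322), Tap1 (2.33, adjusted p = 0.0448) and Psme2 (2.63, adjusted p = 0.0495). Positive differences under median-ratio scaling were not particular to these genes. The constitutive Psmb5, Psmb6 and Psmb7 were at 1.90, 1.74 and 0.65, with 0 of 3 called. Among the other 11 subunits of the 20S core the most abundant, Psma6 and Psma7, were at 2.06 and 2.46, with 0 of 11 called. Psmb8, Psmb9, Psmb10, Psme1, Psme2 and Tap1 had positive differences under all 4 scalings and Erap1 negative ones. Tap2, Tapbp and Nlrc5 changed sign among them.

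**Figure D4:**
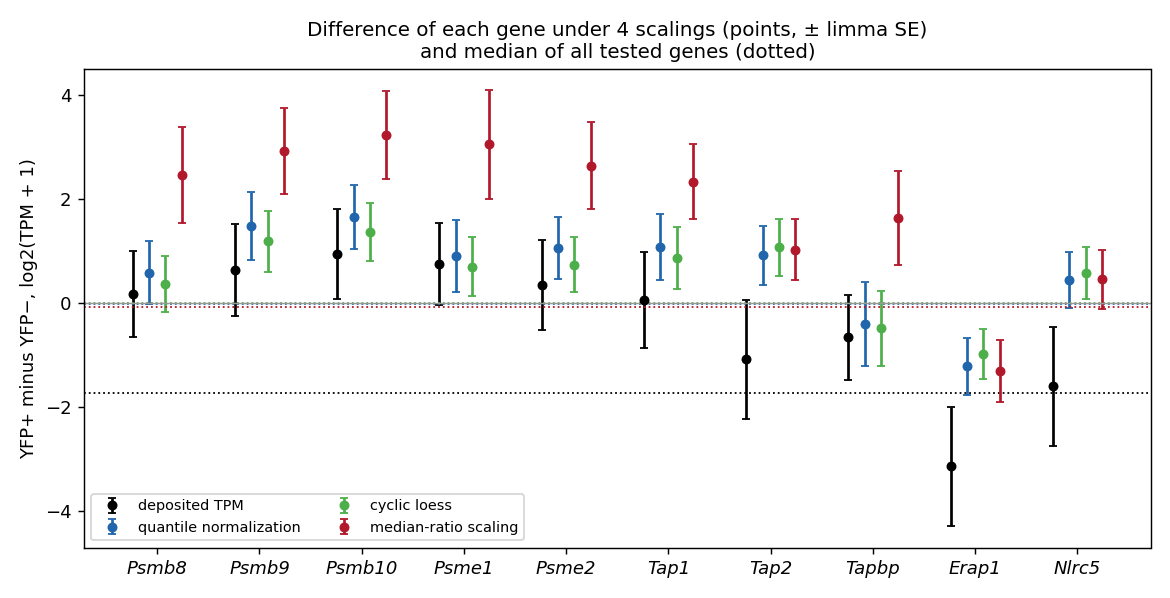
Difference in log2(TPM + 1), YFP+ minus YFP-, for each gene under 4 scalings, with bars of 1 limma standard error; dotted lines give the median of all tested genes under the same scaling. On deposited values the genes lie from -3.15 (Erap1) to 0.93 (Psmb10) and the overall median at -1.73.

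Of the other 14 genes of the proteasome core, 0 passed limma in either direction, also at unadjusted p under 0.05. Among all tested genes 0.522% were called higher and 39.5% lower, and 6506 of 12251 had an unadjusted p under 0.05. The constitutive catalytic genes had a median difference of -0.54 (Psmb5 -0.38, Psmb6 -0.54 and Psmb7 -1.62), and 0 of 3 were called. The other 11 subunits of the 20S core had a median of -0.66 with 0 called, and among them Psma6 (-0.22) and Psma7 (0.17) were the most abundant. Of 8 assembly factors and other core regulators 0 rose and 1 fell, Psme4, the PA200 cap (-3.06, limma, adjusted p = 0.0231; 0.162 in the block fit by title start). Pomp, the maturation factor needed to assemble immune subunits, was at 151 ± 48.7 TPM in YFP+ and 244 ± 91.6 in YFP- (-0.68, limma, adjusted p = 0.507).

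Peptides from the pump are loaded onto class I molecules, whose classical heavy chain genes were higher in YFP+. Of 7 folding and loading partners 2 rose and 1 fell, with a list median of -0.21. The heavy chain genes H2-D1 (1.81, limma, adjusted p = 0.00974) and H2-K1 (1.56, adjusted p = 0.0273) rose, and the light chain gene B2m, at 13141 ± 1433 against 6433 ± 4801 TPM, did not pass (1.26, adjusted p = 0.0573). The lectin chaperone Canx fell (-2.58, limma, adjusted p = 0.0221), and Calr (-0.21), Pdia3 (-1.45) and Tapbpl (-1.01) did not pass. None of these 3 calls held under quantile normalization (adjusted p = 0.343, 0.417 and 0.207 for H2-D1, H2-K1 and Canx) or with the title start as a block (0.0925, 0.153 and 0.121).

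Of 8 other peptidases listed, Nrdc was not matched by name. Of the 7 that trim or destroy antigenic peptides 0 rose and 4 fell (0 and 6 at unadjusted p under 0.05), with a list median of -2.45. Those that fell were Tpp2 (-3.06), Ide (-2.87), Blmh (-2.74) and Lnpep, the endosomal relative of Erap1 (-1.58). With the title start as a block Lnpep still passed (limma, adjusted p = 0.036), while Tpp2 (0.166), Ide (0.189) and Blmh (0.203) did not. Lnpep was however scarce, with means of 0.379 TPM in YFP+ and 3.21 in YFP-. Its difference lay 0.15 above the median of all tested genes, so it fell no more than the typical gene. Under quantile normalization the Lnpep difference was 0.018 (limma, adjusted p = 0.978). Of 20 genes of interferon signalling and induction 0 rose and 5 fell (0 and 8 unadjusted), with a list median of -1.54. The kinases Jak2 (-3.03) and Jak1 (-2.75), the receptor Ifnar1 (-2.94) and the feedback inhibitor Socs3 (-2.75) were the 4 of largest change, but none of these 4 passed once the title start was a block (limma, adjusted p = 0.157, 0.111, 0.144 and 0.111). Ifngr1, the interferon gamma receptor, was at 211 ± 134 against 635 ± 197 TPM (-1.71, limma, adjusted p = 0.0807), and Irf1, an activator of this pathway, at 376 ± 20.2 against 332 ± 262 TPM (0.45, adjusted p = 0.645). Under quantile normalization 0 genes of any of these lists were called in either direction. Shares of higher and lower calls in these lists are to be read against the 0.522% and 39.5% of all tested genes. Unadjusted counts are to be read against 6506 of 12251 tested genes at unadjusted p under 0.05 in either direction.

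**Figure D5:**
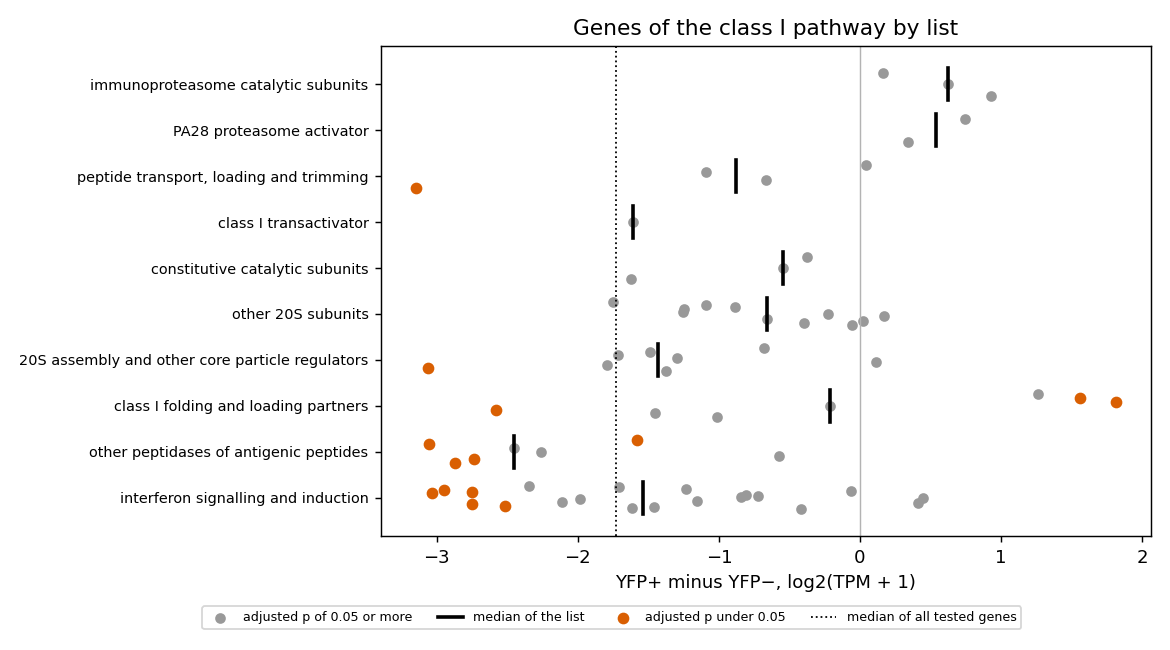
Difference in log2(TPM + 1), YFP+ minus YFP-, for each tested gene of 10 lists; orange points have a limma adjusted p under 0.05, bars give list medians and the dotted line the median of all tested genes (-1.73). The immune catalytic subunits (median 0.62) and PA28 genes (median 0.54) lie to the right of the constitutive catalytic subunits (median -0.54).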

How the data were processed

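One gene table per library was deposited. It holds, per the file headers, the authors' mean read coverage, FPKM (fragments per kilobase per 1000000 mapped fragments) and TPM. The submitters' processing notes name HISAT with builds GRCm38 and mm10; what program wrote the tables was not given in the sources used here. Rows of one gene name were summed. A gene was tested (12251 were) if 2 or more libraries reached 1 TPM. The model on log2(TPM + 1) was limma-trend (limma 3.58.1, R 4.3.3), on all 4 libraries with the YFP group alone, Benjamini-Hochberg adjusted, at 0.05. In that fit limma's prior degrees of freedom were infinite, so each p rests on the variance trend over all genes. Ratios of partner genes were compared by exact permutation. Coverage and FPKM served as alternative scales. On deposited values, deviations of same-start libraries from their group means had a correlation of -0.01 over all tested genes. This correlation was not taken on quantile-normalized values. There a block by title start changed the higher and lower calls from 148 and 205 to 752 and 650. The genes, lists and tests were chosen with earlier results of these data known. All 10 genes are named; of lists over 8 genes, the called genes (at most 4 per direction by size) and the 2 most abundant are named. Alternatives were other pseudocounts, filters and scalings, FPKM, the title start as a block, and each library left out. Sequences are from RefSeq (GRCm38.p6) and overlaps from GENCODE M21 (GRCm38). Joins and plots were made with matplotlib 3.10.9, NumPy 2.4.6, pandas 2.3.3 and Python 3.11.15.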

Additional observations from a re-analysis of the deposited data

Results flagged for a closer look

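For 4 genes the YFP+ library lay above the YFP- library of one title start and below it in the other, on the log2(TPM + 1) scale. The differences, in M and then FM libraries, were 0.93 and -0.84 for Tap1, 0.66 and -2.00 for Tapbp, 0.027 and -2.21 for Tap2, and -0.037 and 0.36 for Psmb8. The log2 ratio of Tapbp over Tapbpl likewise differed by 0.84 between the M and by -0.15 between the FM libraries. With 1 library per group and title start, the difference between title starts was not tested. The M difference of Tap2 and the M difference of Psmb8 are close to 0.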

How the results depend on the processing

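Depth in reads is unknown, so no counting error can be given, and 2 libraries per group limit precision. All genes called higher and lower numbered 64 and 4834 on deposited values. They numbered 148 and 205 under quantile normalization, 688 and 724 under median-ratio scaling, 65 and 40 under cyclic loess, and 115 and 3461 on FPKM. A pseudocount of 0.1 gave 51 and 3078, and a filter at 5 TPM 57 and 2902. With the title start as a replicate block 23 and 1726 were called, and 752 and 650 with block and quantile normalization. Leaving out each library in turn gave 12 to 71 higher and 24 to 8280 lower, where the lone library of a group is assumed to vary like the other group.

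Of the 10 genes, 4 were called higher and 0 lower under median-ratio scaling. The 1 lower call became 0 under quantile normalization, cyclic loess, the replicate block, and the block with quantile normalization, and 0 to 2 with each library left out (0 to 0 higher). Signs turned for Tap2 under quantile normalization, with or without the block (0.91), median-ratio scaling (1.02) and cyclic loess (1.06), for Nlrc5 under the same settings (0.43, 0.45 and 0.57), and for Tapbp under median-ratio scaling (1.63). They also turned without YFP- FM for Psmb8 (-0.048) and Tapbp (0.23), and for Tap1 without YFP+ M (-0.15) or YFP- M (-0.65); with each library left out these differences ran from -0.048 to 0.37, from -1.57 to 0.23 and from -0.65 to 0.74. The cause was not tested.

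FPKM, coverage and the block could hardly move a partner ratio, so its stability under them is no check. FPKM and coverage rescale most genes of a library by nearly a constant. In this balanced design the block leaves the mean difference as it was. With these settings or another pseudocount, partner ratios moved by less than their spread. Under quantile normalization and cyclic loess, chosen for ratios after seeing the data, they moved beyond it for Psmb8 over Psmb5 (-0.089 and -0.037), Psme1 over Psme2 (-0.16 and -0.039), Psme1 over Psme3 (0.99 and 0.82), Tap1 over Tap2 (0.16 and -0.20) and Tapbp over Tapbpl (-0.97 and -1.02). With each library left out the Psmb10 over Psmb7 difference ran from 1.65 to 3.45 and the Psmb9 over Psmb6 difference from 0.70 to 1.63.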
